A study of Mus musculus with 24 samples.

Results

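The left ventricles of mice without the clock gene Per2 and of wildtype mice differed in the expression of a set of genes over sham surgery, ischemia, preconditioning and reperfusion. The comparison was of all 12 Per2-/- arrays with all 12 wildtype arrays, with the treatment as a covariate, so that each gene received 1 difference, Per2-/- minus wildtype, in log2 units. It took in all 24 arrays of the series and all 18820 genes that are paired with a probe set of their own. Of these, 319 differed (limma, Benjamini-Hochberg adjusted p under 0.05, 1.70% of the genes tested), with 190 higher (1.01%) and 129 lower (0.685%) in Per2-/- hearts. The largest differences were in Rcan2 and Lgr6, which were lower in Per2-/- hearts, and in Edn3 and Rab4a, which were higher.

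All animals were male mice, and the labels give 1 strain, BL6C57, for both genotypes. The study's methods put their age at 12 to 16 weeks and name a supplier line of Per2-/- mice, without saying in the sources used here which part of the gene is deleted. Each array carried the RNA of 1 left ventricle, with 3 Per2-/- and 3 wildtype hearts in each of 4 treatments. Sham hearts were never made ischemic. The labels call them untreated controls, while the study's text describes them as sham operated. The coronary supply was cut for 30 minutes in I30 hearts, which were taken before any reflow. IP0 hearts went through 4 short preconditioning cycles, each with 5 minutes without flow and 5 minutes with flow. I30R60 hearts were ischemic for 30 minutes and then reperfused for another 60. All mice were anesthetized and catheterized, and the hearts were flushed with cold saline before harvest. The knockout was not limited to the heart, so that effects within heart muscle and effects from the rest of the body cannot be told apart, nor can the Per2 allele and any other difference in descent between the 2 mouse lines. In bulk tissue, a lower level can mean fewer cells of a type or less RNA per cell, and these cannot be told apart either.

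Per2 encodes a repressor of the circadian clock. The transcription factors CLOCK or NPAS2 pair with BMAL1 at E-boxes and switch on the Per and Cry genes, whose products then return to the nucleus and shut off that pair. In heart muscle the clock is known to set the daily course of fuel use, ion channel expression and the tolerance of ischemia.

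The Per2 probe set had log2 values of 4.94 to 6.25 (median 5.62) in Per2-/- arrays and of 4.66 to 6.71 (median 5.91) in wildtype arrays, so that the genotypes overlapped over most of their range. The difference was -0.30 (SE 0.17, limma adjusted p = 0.50), and by treatment it was -0.13 in sham, -1.12 in I30, 0.37 in IP0 and -0.31 in I30R60 hearts. Where on the transcript these probes lie relative to the deleted part is not known, so this value neither bears out nor contradicts the labels.

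The hearts of both genotypes carried ventricular muscle transcripts at like levels. A mean over 9 ventricular muscle genes was 11.7 to 11.9 in Per2-/- and 11.7 to 11.8 in wildtype arrays. Some arrays carried transcripts of other tissue: the mean of 9 atrial muscle genes reached 8.43 in Per2-/- and 6.96 in wildtype arrays, against medians of 5.34 in Per2-/- and 5.53 in wildtype arrays, and the mean of 9 lung epithelium genes reached 4.23 in wildtype arrays, against at most 3.07 in Per2-/- arrays. None of the atrial, lung, neutrophil, macrophage, lymphocyte, endothelial, adipocyte, erythroid, skeletal or ventricular muscle markers passed the test over all treatments. Negative differences were found in 8 of 9 neutrophil markers (median -0.16), 8 of 9 lung markers (median -0.12) and 9 of 10 macrophage markers (median -0.09). These are means over the treatments, and some neutrophil markers changed sign between them. Retnlg differed by -0.82, -1.82, 0.58 and 0.85 in sham, I30, IP0 and I30R60 hearts. In the same order, S100a8 differed by -0.49, -0.95, 0.38 and 0.26, and Csf3r by -0.41, 0.04, -0.35 and -0.30. No interaction passed the test. Among 10 fibroblast markers Postn was higher (0.35) and among 9 smooth muscle and pericyte markers Acta2 was lower (-0.47) in Per2-/- hearts. The shares over all genes were 1.01% higher and 0.685% lower. Postn missed the threshold when any of 13 arrays was left out (adjusted p up to 0.068), and Acta2 when any of 11 was (adjusted p up to 0.0681). Without the 4 arrays of high atrial Myl7 the 319 genes became 237, and without the 2 wildtype I30 arrays highest in lung transcripts they became 251. Of these, 205 and 219 were among the 319, and leaving out both sets gave 134 genes, of which 118 were among the 319. These sets of arrays were chosen after the data were seen. The arrays left in were not free of lung transcripts. Scgb1a1 was 4.45 in wildtype I30 replicate 3 and 4.82 in Per2-/- I30 replicate 1, against a wildtype median of 2.66. Sftpc was 3.15 to 4.09 in Per2-/- sham and 2.67 to 2.82 in wildtype sham arrays.

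Rcan2, a regulator of the phosphatase calcineurin, showed the largest difference of all genes. Its log2 level was 5.35 to 8.32 (median 6.31) in Per2-/- arrays and 9.57 to 9.99 (median 9.91) in wildtype arrays. Wildtype arrays lay close together, while Per2-/- arrays spread widely, and no Per2-/- array reached the lowest wildtype array. The difference was -3.38 (SE 0.23, adjusted p = 9.45e-10). Its paralogue Rcan1, which calcineurin itself is known to induce, had a difference of -0.07 (adjusted p = 0.87). Of 19 genes of calcineurin and hypertrophy signaling Rcan2 alone passed the test, with a median of -0.05. Over all genes, 1.70% passed.

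Lgr6, a receptor for R-spondins that strengthens Wnt signaling, had levels of 4.25 to 5.33 (median 4.64) in Per2-/- and 6.97 to 7.41 (median 7.24) in wildtype arrays. The gap between the genotypes was wider than the range within either. The difference was -2.53 (SE 0.10, adjusted p = 2.21e-14). Fzd6, a Wnt receptor of the frizzled family, was lower as well (-0.75, SE 0.07, adjusted p = 9.08e-07), with levels of 5.96 to 6.69 in Per2-/- and 6.64 to 7.24 in wildtype arrays. Of 21 genes listed for endothelin, R-spondin and Wnt receptor signaling, among which Fzd6 was not counted, 1 was higher and 1 was lower in Per2-/- hearts, with a median difference of 0.01 against -0.0022 over all genes. These were Edn3 and Lgr6. The shares over all genes tested were 1.01% higher and 0.685% lower.

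Edn3 encodes endothelin 3, a peptide ligand best known from neural crest development that prefers the endothelin B receptor. It had levels of 6.04 to 7.23 (median 6.92) in Per2-/- arrays and of 4.76 to 6.0 (median 5.08) in wildtype arrays. The closest approach was between Per2-/- sham replicate 3 and a wildtype IP0 array. The difference was 1.68 (SE 0.12, adjusted p = 2.53e-09), while Edn1, the vasoconstrictor made by endothelium, had a difference of 0.12 (adjusted p = 0.78).

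Genes of mitochondria stood at both ends of the ranking. Bcl2l13, an outer membrane protein that acts as a mitophagy receptor, had levels of 7.66 to 8.05 (median 7.83) in Per2-/- and 8.84 to 9.05 (median 8.91) in wildtype arrays, a difference of -1.13 (SE 0.04, adjusted p = 2.21e-14). Both genotypes varied little, and the gap between them was larger than the spread of either. Nnt, the transhydrogenase that makes mitochondrial NADPH, had levels of 11.3 to 11.7 (median 11.5) in Per2-/- and 10.3 to 10.8 (median 10.5) in wildtype arrays, a difference of 0.96 (SE 0.04, adjusted p = 6.51e-14). A second probe set of Nnt, with a much lower signal (a mean of 5.59 in Per2-/- and of 5.42 in wildtype arrays), differed by 0.18 (adjusted p = 0.21 over all probe sets). As background, the C57BL/6J substrain is known to lack several exons of Nnt. The methods name The Jackson Laboratory as the source of both the Per2-/- and the wildtype C57BL6 mice. The substrain is not given for either genotype in the sources used here, and its part in the difference was not tested. Bdh1, which interconverts the ketone bodies acetoacetate and beta-hydroxybutyrate, was higher by 1.24 (SE 0.14, adjusted p = 6.12e-06), with levels of 8.39 to 9.77 (median 9.45) in Per2-/- and 7.24 to 8.56 (median 8.31) in wildtype arrays, which overlapped slightly. Acsm5, an acyl-CoA synthetase for medium-chain fatty acids, was higher by 0.88 (SE 0.12, adjusted p = 4.31e-05).

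Snrpe, a core Sm protein of spliceosomal particles, was among the most sharply separated genes. Its levels were 8.34 to 8.84 (median 8.59) in Per2-/- and 7.31 to 7.63 (median 7.49) in wildtype arrays, and the difference was 1.11 (SE 0.05, adjusted p = 7.11e-14). Rab4a, a small GTPase of recycling endosomes, had levels of 6.04 to 6.74 (median 6.46) in Per2-/- and 4.39 to 5.84 (median 5.02) in wildtype arrays, with more scatter in wildtype and a difference of 1.38 (SE 0.12, adjusted p = 4.39e-08). Amph, which bends membranes in endocytosis, was higher by 0.93 (SE 0.11, adjusted p = 8.81e-06). Erdr1, a multicopy gene whose signal cannot be assigned to 1 locus, had levels of 8.30 to 10.2 in Per2-/- and 6.46 to 9.23 in wildtype arrays, so that its difference of 1.1 (SE 0.24, adjusted p = 0.0117) is uncertain.

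**Figure D1:**
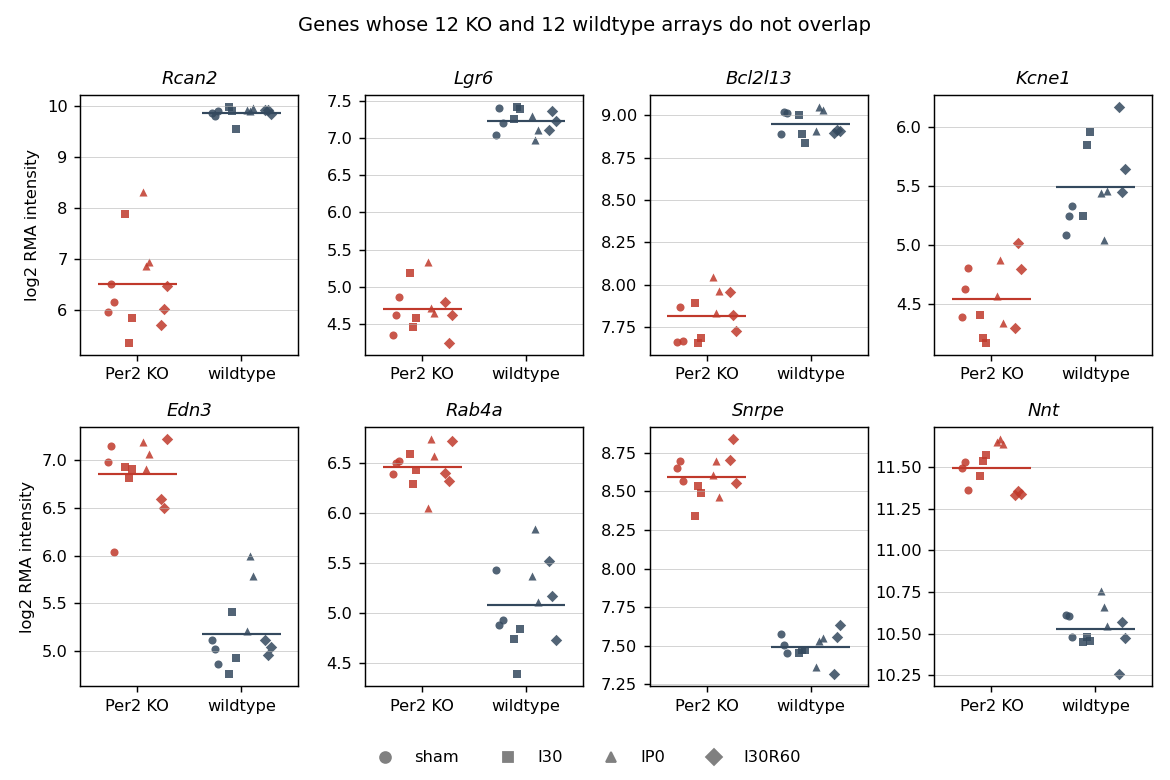
Log2 RMA intensity (y axis) of 8 genes in each Per2-/- array (left, red) and each wildtype array (right, dark), with the treatment given by the marker and the mean of 12 arrays by the line. In each of the 8 genes no Per2-/- array lies within the range of the wildtype arrays, and Rcan2 shows the widest scatter in Per2-/- arrays.

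In 28 genes (0.149% of those tested), the 12 Per2-/- and 12 wildtype arrays did not overlap at all, 14 in each direction (0.0744% each). Besides those above, these included Sdc2, the heparan sulfate proteoglycan syndecan 2 (-0.92, SE 0.08, adjusted p = 3.11e-08), Cmbl, a cytosolic hydrolase (-0.93, SE 0.05, adjusted p = 1.41e-11) and Mcm6, a subunit of the replicative helicase (-0.81, SE 0.07, adjusted p = 1.04e-07). Higher without overlap were Wdfy1, a phosphoinositide-binding protein of early endosomes (1.06), Tmem37, a calcium channel gamma-like subunit (0.97), the transporter-like Mfsd4a (0.93), the aspartic protease Ctse (0.85) and Meig1, known from spermatid development (0.82). Others had small differences and tight replicates. Ddah1, which breaks down an inhibitor of nitric oxide synthesis, had levels of 6.75 to 7.28 in Per2-/- and 6.35 to 6.70 in wildtype arrays (0.50, SE 0.06, adjusted p = 5.04e-06), and Pde1c, a calcium-activated phosphodiesterase, had 6.28 to 6.87 in Per2-/- and 6.89 to 7.45 in wildtype arrays (-0.50, SE 0.07, adjusted p = 4.81e-05). Both were chosen with their values in view.

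**Figure D2:**
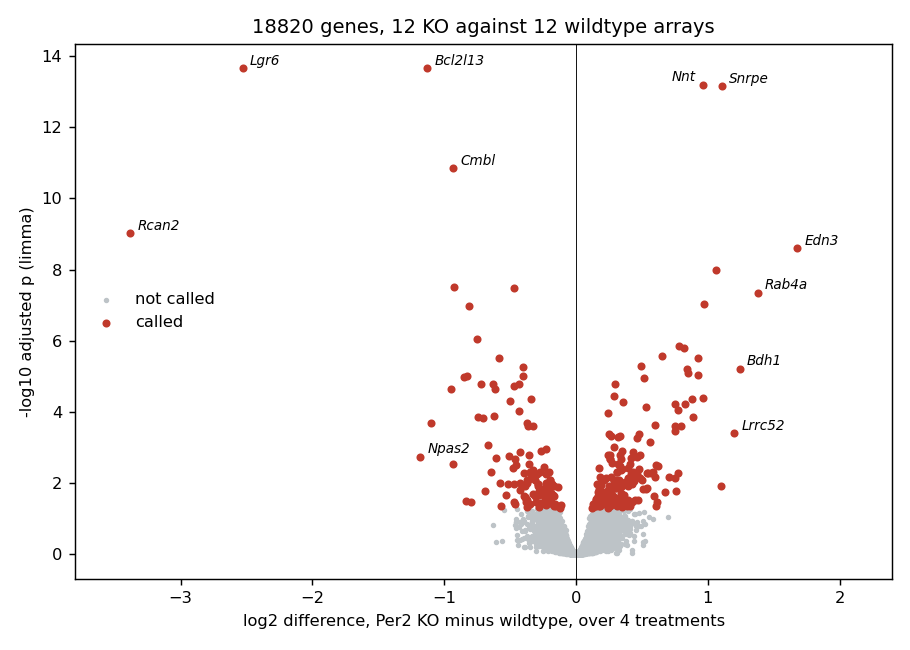
Log2 difference of each of 18820 genes, Per2-/- minus wildtype (x axis), against -log10 of the limma adjusted p (y axis). Red points are the 319 genes that passed the test, and Rcan2 and Lgr6 lie far to the left of all others.

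Most differences were small. The median size among the 319 genes was 0.34, with 37 genes higher and 25 lower by at least 1.5-fold, and 7 higher and 5 lower by at least 2-fold (0.0638% of the genes tested). The median residual SD of a gene was 0.17 and the median standard error of the difference 0.07. The number of arrays limits this precision.

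Ion channel subunits moved in both directions. Kcne1, the accessory subunit of the slow delayed rectifier potassium current, had levels of 4.17 to 5.02 (median 4.49) in Per2-/- arrays and 5.05 to 6.17 (median 5.45) in wildtype arrays. The ranges nearly touched but did not overlap, and the difference was -0.95 (SE 0.12, adjusted p = 2.23e-05). Scn4b, the beta 4 subunit of sodium channels, had levels of 6.69 to 7.42 (median 7.2) in Per2-/- and 5.21 to 6.72 (median 6.24) in wildtype arrays, a difference of 0.97 (SE 0.13, adjusted p = 4.13e-05). The 2 ranges met only at their edges. Of 30 potassium, sodium and calcium channel genes, a list made after the values were seen, Scn4b and the calcium channel subunit Cacng6 (0.75) were higher. Kcne1, Kcna1 (-0.37) and Kcnk13 (-0.28) were lower, and the median of the list was 0.04. Over all genes, 1.01% were higher and 0.685% lower. Lrrc52, an auxiliary subunit known to act on large-conductance potassium channels, was higher by 1.2 (SE 0.18, adjusted p = 0.000394). It ranged from 5.29 to 7.45 in Per2-/- arrays and from 4.78 to 5.88 in wildtype arrays.

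Of 19 core sarcomere and calcium handling genes none passed the test, with a median of 0.01. Among 20 further striated muscle genes, chosen after the values were seen, 5 were higher and 1 was lower. The shares over all genes were 1.01% higher and 0.685% lower. Mylk4, a kinase of the myosin light chain kinase family, had levels of 10.3 to 10.7 (median 10.5) in Per2-/- and 9.22 to 10.4 (median 9.61) in wildtype arrays, a difference of 0.84 (SE 0.10, adjusted p = 6.12e-06). Only the highest wildtype array reached the Per2-/- range. The beta-tropomyosin gene Tpm2 (0.82), the Z-disc gene Myot (0.79), the fast light chain Myl1 (0.58) and the smoothelin-like Smtnl2 (0.43) were higher too, whereas Myom2 of the M-band was lower (-0.43, SE 0.06, adjusted p = 9.56e-05). Mylk4, Myl1 and Smtnl2 differed most in sham hearts, by 1.26, 1.02 and 0.78, where atrial transcripts were high in 1 Per2-/- and 2 wildtype arrays. The part of that tissue in these values was not tested.

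Few genes of fuel metabolism passed the test. The shares to set beside the counts below were 1.01% higher and 0.685% lower over all genes. No gene of 21 in fatty acid beta-oxidation and none of 30 oxidative phosphorylation subunits passed the test, with medians of -0.02 in both. In beta-oxidation, Cpt1a, which brings long-chain fatty acids into mitochondria, lay close to the threshold (-0.24, SE 0.06, adjusted p = 0.0512) and passed in 11 of 43 alternatives. Ehhadh, an enzyme of the peroxisomal pathway, had a difference of -0.45 (SE 0.13, adjusted p = 0.10) and passed in 4 alternatives. By treatment Ehhadh differed by -1.05, 0.25, -0.41 and -0.60 in sham, I30, IP0 and I30R60 hearts. Within sham hearts alone it passed (limma adjusted p = 0.0221), while its interaction of genotype and treatment did not (adjusted p = 0.495). The isomerase Eci2 had a difference of -0.13 (adjusted p = 0.0903) and passed in 5 alternatives. Of 19 targets of the fatty acid receptor PPAR-alpha, 14 had negative differences, Cpt1a and Ehhadh among them, with a median of -0.16, and Angptl4 alone passed. Angptl4, a secreted inhibitor of lipoprotein lipase, had levels of 5.02 to 6.55 (median 5.65) in Per2-/- and 5.26 to 7.72 (median 6.69) in wildtype arrays. The genotypes overlapped broadly, and the difference of -0.80 (SE 0.20, adjusted p = 0.0332) was -1.12, -0.05, -1.0 and -1.03 in sham, I30, IP0 and I30R60 hearts. It missed the threshold when any of 16 arrays was left out (adjusted p up to 0.066) and without the 4 arrays of high Myl7 (-0.71, adjusted p = 0.177). Among 23 genes of glycolysis and lactate handling, the phosphofructokinase isoform Pfkp was lower (-0.48, SE 0.09, adjusted p = 0.00366) and Pdk1, which blocks entry of pyruvate into mitochondria, was higher (0.18, SE 0.04, adjusted p = 0.034). The Pdk1 call was lost when any of 16 arrays was left out (adjusted p up to 0.072). The glycogen phosphorylase Pygb was the only one of 16 glycogen genes to pass (0.14, adjusted p = 0.0418), and it missed the threshold when any of 18 arrays was left out (adjusted p up to 0.0857). Nqo1 was higher beside Nnt among 21 redox genes (0.34, SE 0.06, adjusted p = 0.00128). Of 16 genes of the BCL2 family and mitophagy, Bcl2 (0.27) and Pink1 (0.17) were higher and Bcl2l13 was lower. Bcl2 missed the threshold when any of 10 arrays was left out (adjusted p up to 0.0681) and with another of its probe sets (0.11, adjusted p = 0.725). Pink1 passed with any array left out but not without all arrays of any 1 treatment (adjusted p of 0.0817 to 0.148).

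Within the clock itself, 1 of 16 core genes was higher and 1 was lower, against 1.01% higher and 0.685% lower over all genes. Npas2, which can stand in for CLOCK, had levels of 4.50 to 6.06 (median 5.63) in Per2-/- arrays and of 5.62 to 7.29 (median 6.96) in wildtype arrays. Most Per2-/- arrays lay below most wildtype arrays, though the ranges overlapped, and the difference was -1.18 (SE 0.21, adjusted p = 0.00181). By treatment Npas2 differed by -0.92, -0.79, -1.83 and -1.19 in sham, I30, IP0 and I30R60 hearts. The study's methods place all mouse experiments at the same time of day, so that daily rhythms were not read. Per1, the closest relative of Per2, was higher by 0.26 (SE 0.06, adjusted p = 0.0224), with levels of 8.10 to 8.63 in Per2-/- and 7.75 to 8.50 in wildtype arrays. The Per1 call was lost without the sham hearts (0.23, adjusted p = 0.212), without the IP0 hearts (0.21, adjusted p = 0.233) and without the arrays of high Myl7 (0.24, adjusted p = 0.115). Arntl, which encodes BMAL1, had a difference of -0.63 (SE 0.21, adjusted p = 0.153), and Per3 one of 0.44 (SE 0.19, adjusted p = 0.311). None of 18 clock output genes passed the test. The E-box CACGTG, which reads the same on both strands, was searched from 250 bases before to 50 after the start in the RefSeq promoters (GRCm38.p6) that 14739 of the genes have. It was in 9.57% of them, in 8.39% of 143 promoters of genes higher in Per2-/- hearts, in 14.7% of 95 of genes lower, and in 4 of 13 core clock promoters. One of these was that of Per1, shown here around its E-box in capitals, on the plus strand at chr11:69098763-69098808.
Per1: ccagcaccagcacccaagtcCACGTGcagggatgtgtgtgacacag

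Of 26 chaperones and folding factors of the endoplasmic reticulum, 8 were lower in Per2-/- hearts, none was higher and 18 did not pass the test. The median difference was -0.08. Of all genes tested, 0.685% were lower and 1.01% higher. Differences were negative in 19 of the 26 and positive in 7, and the list was made after the values were seen. These proteins fold secreted and membrane proteins and are known to be induced together in the unfolded protein response. Sdf2l1, a cochaperone of BiP, had levels of 5.85 to 6.72 (median 6.42) in Per2-/- and 5.85 to 7.78 (median 6.96) in wildtype arrays, a difference of -0.65 (SE 0.12, adjusted p = 0.00486). By treatment it differed by -0.07 in sham hearts and by -0.77, -0.74 and -1.0 in I30, IP0 and I30R60 hearts, although the interaction did not pass the test (adjusted p = 0.67). Manf, a secreted protein of the same response, likewise had differences of -0.02 in sham hearts and of -0.57, -0.48 and -0.51 in the treated hearts. Smaller differences were found in the disulfide isomerases Pdia6 (-0.24), Pdia3 (-0.22) and Tmx1 (-0.24), in Hyou1 (-0.22), in Hsp90b1 (-0.20), the GRP94 gene, and in the calcium-binding lectin Calr (-0.16). Hspa5, which encodes BiP, had a difference of -0.19 (SE 0.06, adjusted p = 0.0975) and did not pass. The count of 8 fell to 5 without Per2-/- I30R60 replicate 3 or without the 2 wildtype I30 arrays highest in lung transcripts. It fell to 1 without all I30, all IP0 or all I30R60 hearts.

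The ER stress element, CCAAT and CCACG with any 9 bases between them, was searched on both strands of the same promoters. It was in 20 of 14739 (0.136%), in none of 143 promoters of genes higher and in 3 of 95 of genes lower in Per2-/- hearts. Among the chaperones 7 of 22 promoters held it, those of Hsp90b1, Pdia6 and Calr, which were lower, and of Hspa5, Canx, Dnajc3 and Creld2, which did not pass the test. The stretches around it are shown 5′ to 3′ on the strand of the gene for the 3 genes that were lower and for Hspa5, with the element in capitals. In Calr the capitals are its reverse complement. They lie at chr12:17266471-17266529 (plus strand, Pdia6), chr10:86705618-86705676 (minus, Hsp90b1, which holds a second match), chr8:84847055-84847113 (minus, Calr) and chr2:34772005-34772063 (plus, Hspa5). A match describes these letters and no binding.
Pdia6: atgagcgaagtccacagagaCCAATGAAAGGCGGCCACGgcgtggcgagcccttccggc
Hsp90b1: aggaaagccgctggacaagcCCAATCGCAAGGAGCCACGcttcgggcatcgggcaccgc
Calr: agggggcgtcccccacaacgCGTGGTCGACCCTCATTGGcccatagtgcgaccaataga
Hspa5: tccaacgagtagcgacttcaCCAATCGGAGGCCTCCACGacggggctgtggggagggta

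Of 12 genes of antigen presentation, 3 were higher in Per2-/- hearts and 9 did not pass the test, with positive differences in 12 (median 0.21). The 3 were H2-Q6 (0.89, SE 0.13, adjusted p = 0.000135), H2-K1 (0.40, SE 0.07, adjusted p = 0.00364) and B2m, the light chain of class I molecules (0.26, SE 0.07, adjusted p = 0.0444). B2m missed the threshold when any of 16 arrays was left out (adjusted p up to 0.0876). H2-Q6 had levels of 7.85 to 8.99 (median 8.49) in Per2-/- and 6.90 to 8.70 (median 7.58) in wildtype arrays, with the higher wildtype arrays inside the Per2-/- range. Class I H2 genes are near copies of each other, so that the probe sets may read more than 1 of them and the values of single genes are uncertain. Of 24 such genes, counted after the values were seen, 5 were higher and none was lower. Differences were positive in 16 and negative in 8 of the 24, with a median of 0.02. Of all genes tested, 1.01% were higher and 0.685% lower. Among 21 interferon response genes 17 had positive differences (median 0.15), but Gbp2 (0.39) and Gbp3 (0.43) alone passed. All 7 Gbp genes measured, which encode guanylate-binding proteins that interferon induces, had positive differences, and Gbp2, Gbp3, Gbp4, Gbp7 and Gbp8 passed. Gbp4 had levels of 6.71 to 7.71 (median 6.96) in Per2-/- and 5.83 to 6.96 (median 6.33) in wildtype arrays and the largest difference (0.60, SE 0.12, adjusted p = 0.00667). These genes share sequence, were counted after the values were seen and lie close to the threshold: fewer of them passed when any of 16 arrays was left out (at least 2 remained), and none passed without the I30 hearts. Lymphocyte markers had a mean of 3.32 to 3.76 in Per2-/- and of 3.36 to 3.75 in wildtype arrays, and macrophage markers had a mean of 6.85 to 7.43 in Per2-/- and of 6.95 to 7.54 in wildtype arrays.

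GAAA and GAAA with any 2 bases between them, a core of the interferon-stimulated response element, stood in 3.91% of all promoters on either strand. It was in 4.895% of 143 promoters of genes higher and in 4.21% of 95 of genes lower in Per2-/- hearts. It was also in 4 of the 4 Gbp promoters in the RefSeq table (Gbp2, Gbp3, Gbp5 and Gbp7). The 3 that belong to genes that passed are shown on the plus strand of chromosome 3, at chr3:142620584-142620633, chr3:142559979-142560028 and chr3:142530263-142530312, with the reverse complement of the match in capitals. Gbp3 holds a second match that overlaps this one. Since these genes are neighbors and near copies, the matches are not independent of each other. Further motifs were searched in the promoters and are not described here.
Gbp2: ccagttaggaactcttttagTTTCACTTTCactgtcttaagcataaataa
Gbp3: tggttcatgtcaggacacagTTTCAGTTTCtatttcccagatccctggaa
Gbp7: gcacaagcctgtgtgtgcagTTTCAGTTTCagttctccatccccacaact

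**Figure D3:**
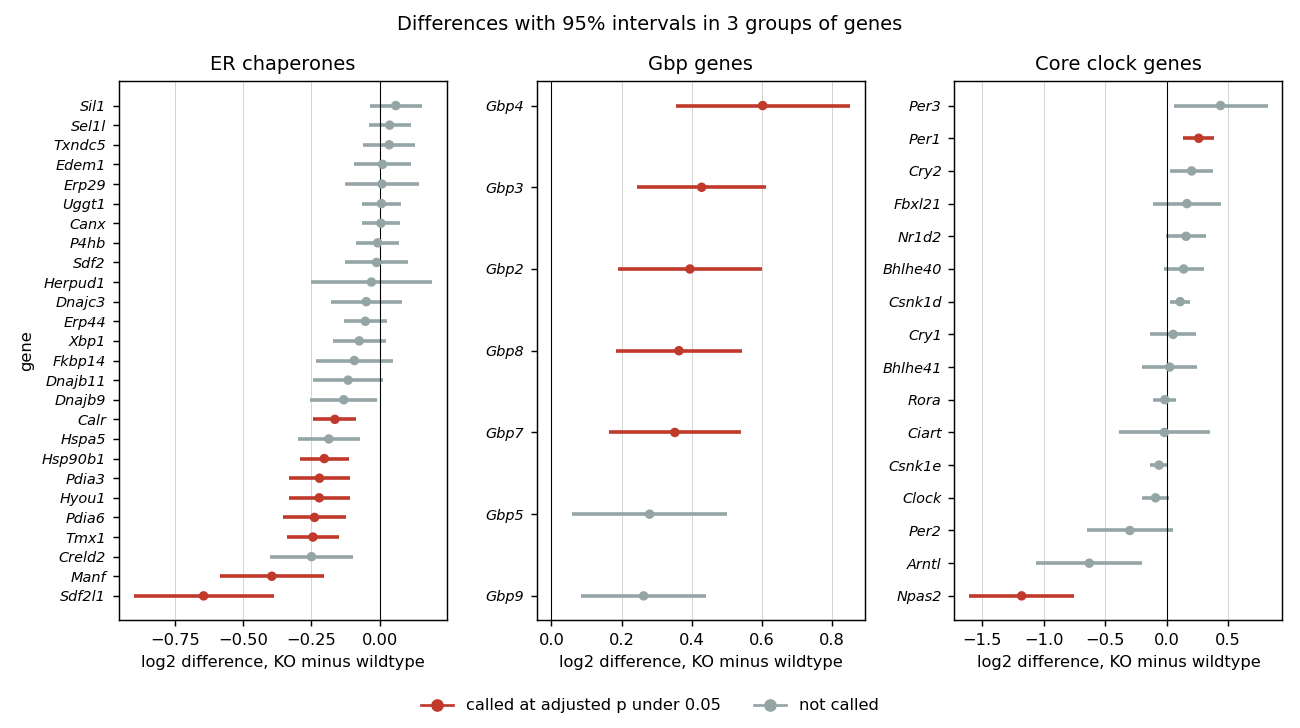
Log2 difference, Per2-/- minus wildtype (x axis), with its 95% interval for the ER chaperones, the Gbp genes and the core clock genes (y axis), in red where the gene passed the test. All 8 chaperones in red lie left of 0, the 7 Gbp genes lie right of 0, and Npas2 lies farthest left among the clock genes.

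Immediate early genes, which answer stress and growth signals within minutes, had positive differences over all treatments in 18 of 19 cases, and 2 passed. Their median was 0.23, against -0.0022 over all genes. Of all genes tested, 1.01% were higher and 0.685% lower. Nr4a2, an orphan nuclear receptor, was higher by 0.71 (SE 0.14, adjusted p = 0.0066), with differences of 1.16, 1.03, 0.38 and 0.26 in sham, I30, IP0 and I30R60 hearts. Egr3, a zinc finger transcription factor, was higher by 0.76 (SE 0.17, adjusted p = 0.016), with differences of 0.80, 1.72, 0.19 and 0.31. Neither passed without the sham hearts or without the I30 hearts. Without the 2 wildtype I30 arrays highest in lung transcripts Nr4a2 passed and Egr3 did not. When the 4 arrays of high Myl7 were left out as well, neither passed. Egr2 (0.58, adjusted p = 0.0998) and Nr4a1 (0.41, adjusted p = 0.161) did not pass. In the same order of treatments, Egr2 differed by 0.51, 1.64, 0.002 and 0.18, and Nr4a1 by 0.95, 0.65, 0.10 and -0.04. No gene of 26 inflammatory cytokines and receptors or of 17 heat shock genes passed on the difference over all treatments. Such a mean can hide a shift within a single treatment. In the same order, Trem1 differed by 0.08, -0.12, 0.23 and 0.70, and Il1r2 by -0.03, -0.81, -0.03 and -0.22. Neither passed within I30R60 hearts (limma adjusted p = 0.199 and 0.891). Of 26 proliferation genes, listed after the values were seen, Mki67 (0.53), Top2a (0.54), Cdk1 (0.42) and Kif23 (0.29) were higher and Mcm6 was lower. The first 4 mark dividing cells and had low signals, with medians of 4.36 to 5.27 in Per2-/- arrays and of 3.94 to 4.70 in wildtype arrays.

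Among the 319 genes 2 encode microRNAs. The array reads these genes and not the mature miRNA, and both signals were low. Mir181b-2 had levels of 2.50 to 4.25 (median 3.44) in Per2-/- and 3.58 to 4.67 (median 4.11) in wildtype arrays, a difference of -0.69 (SE 0.15, adjusted p = 0.0161). Mir16-2 had levels of 2.31 to 2.87 (median 2.57) in Per2-/- and 1.96 to 2.49 (median 2.34) in wildtype arrays, a difference of 0.28 (SE 0.07, adjusted p = 0.0231). The ranges overlapped in both. Their mature forms in RefSeq (GRCm38.p6) are shown with the seed, bases 2 to 8, in capitals. The 4 seeds all differ.
miR-181b-5p: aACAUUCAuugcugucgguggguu
miR-181b-2-3p: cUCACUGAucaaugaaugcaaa
miR-16-5p: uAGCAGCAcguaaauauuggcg
miR-16-2-3p: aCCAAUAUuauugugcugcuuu

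The genes that differed were unevenly spread over the genome. The chromosome that carries Per2, chromosome 1, held 51 of the 319, which is 4.81% of its 1061 genes and 15.99% of all that passed, against 5.64% of the genes tested, and it held 11 of the 28 genes without overlap. From 100 genes before to 300 genes after Per2, in the gene order of GRCm38.p6, 37 of 401 genes passed (9.23%), against 14 of 660 on the rest of the chromosome. The edges of this window were set with the values known and follow where the calls lie, so that the contrast is a description. Near Per2, the COP9 signalosome subunit Cops8 (-0.47, SE 0.04, adjusted p = 3.34e-08) and Ramp1, a subunit of the receptor for calcitonin gene-related peptide (-0.83, SE 0.10, adjusted p = 9.90e-06), were lower. Lgr6, Snrpe, Mcm6, Wdfy1, Tmem37, Mfsd4a, Ctse and Npas2 lie on this chromosome too, with Npas2 well outside this window and Lgr6 192 genes after Per2. So do Bcl2, Myl1 and Lrrc52, which are described above. Bcl2 lies inside the window, 59 genes after Per2, and Myl1 and Lrrc52 lie outside it. Effects of the knocked-out allele and of any sequence linked to it cannot be told apart in these mice.

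A second dense stretch lay on chromosome 15. Between Marchf6 and Fzd6, 14 of 42 genes passed (33.3%), 4 higher and 10 lower, and between Marchf6 and Washc5 18 of 106 did (16.98%), against 5 of 605 on the rest of the chromosome (0.826%). It held Cmbl, Sdc2 and Fzd6 and also Spag1 (-0.72), the ribosomal protein gene Rpl30 (-0.62), the axon guidance gene Sema5a (-0.63), the lysosomal Laptm4b (-0.40) and, at its far end, the matricellular Ccn3 (0.78). This stretch was delimited after the values were seen. Outside chromosome 1 and this stretch, 250 of 17653 genes passed (1.42%), 160 higher and 90 lower, with Rcan2, Bcl2l13, Edn3, Rab4a, Nnt, Bdh1, Kcne1 and Scn4b among them. Without the 4 arrays of high Myl7, 39 genes passed on chromosome 1 and 17 in the stretch on chromosome 15.

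**Figure D4:**
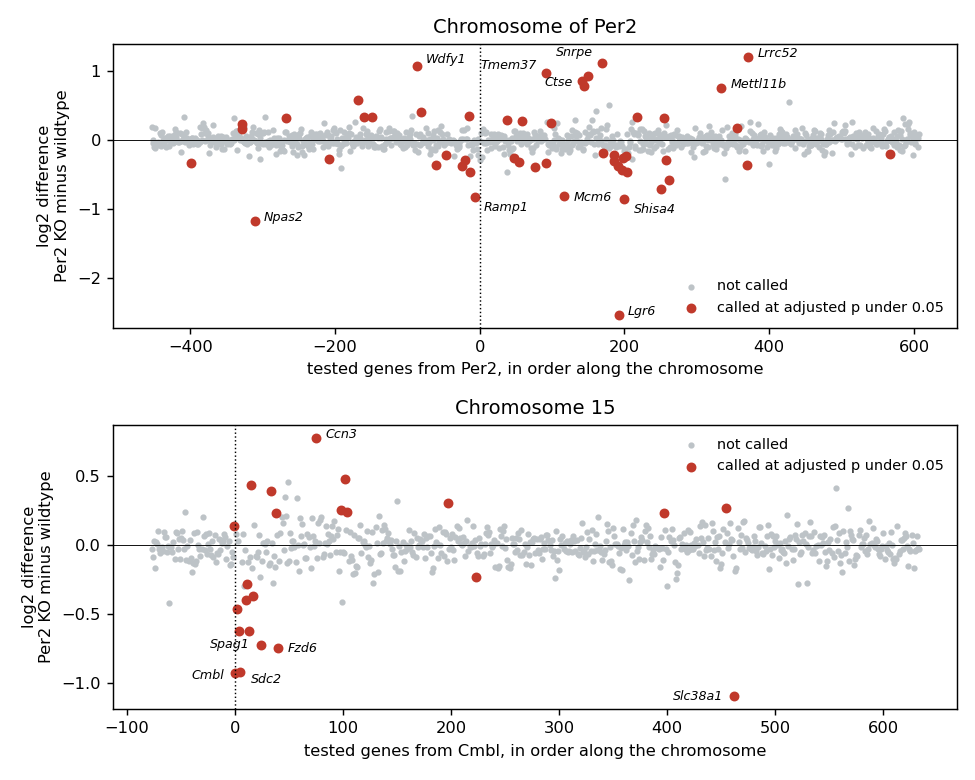
Log2 difference, Per2-/- minus wildtype (y axis), of the genes of chromosome 1 by their place from Per2 (top) and of chromosome 15 by their place from Cmbl (bottom), counted in genes tested (x axis), with genes that passed the test in red. Red points crowd between 100 genes before and 300 after Per2, and on chromosome 15 between the dotted line at Cmbl and Fzd6.

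The 319 genes were chosen on a difference taken over all 4 treatments, which by itself favors genes with 1 sign throughout. Of them, 314 had the same sign in all 4 treatments, 187 of those higher and 127 of those lower, and 40 had an interaction of genotype and treatment at an unadjusted p under 0.05. Within single treatments, with 3 arrays against 3, 50 genes passed in sham (0.266%), 125 in I30 (0.664%), 15 in IP0 (0.0797%) and 33 in I30R60 hearts (0.175%), and 11 passed in all 4. These within-treatment differences come from the same arrays as the overall one. A check on separate arrays took the genes that passed in 1 fit over 3 of the treatments together and read their difference in the fourth. Of 141 genes that passed without the sham hearts, 94.3% had the same sign in sham hearts, with a median difference of 0.41 in that direction. The shares were 89.1% of 129 genes for I30 (median 0.41), 89.7% of 203 for IP0 (median 0.25) and 91.0% of 222 for I30R60 hearts (median 0.25). Over all genes, the median size of the difference was 0.096 in sham, 0.116 in I30, 0.092 in IP0 and 0.102 in I30R60 hearts.

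No gene passed the F test of an interaction between genotype and treatment (0 of 18820 by limma and 0 by an ordinary analysis of variance, with 1371 genes, 7.28%, at an unadjusted p under 0.05). The smallest adjusted p was 0.239, for 4933409K07Rik, which had differences of 0.28, -1.0, -0.04 and 0.19 in sham, I30, IP0 and I30R60 hearts. Ppp1r3c, a targeting subunit for glycogen synthesis, followed with 0.89, -0.48, -0.15 and 0.46 (adjusted p = 0.309). A miss at this threshold does not show that differences were equal. Among the largest differences, Rcan2 was least lowered in IP0 hearts (-2.57, against -3.66, -3.46 and -3.84 in sham, I30 and I30R60 hearts), and the extracellular matrix gene Spon2 had -1.08, -0.19, -1.31 and -1.16 in sham, I30, IP0 and I30R60 hearts. Aqp8, a water channel, had -1.45, -0.07, -0.55 and -1.27. By contrast, Snrpe varied between 0.99 and 1.2 and Sdc2 between -0.97 and -0.87. Arrays of I30 hearts also had narrow distributions, with interquartile ranges of 3.85 to 3.98 in Per2-/- and 3.76 to 3.87 in wildtype arrays, against 3.95 to 4.11 in the other treatments, and the part of this width in the I30 values was not tested.

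**Figure D5:**
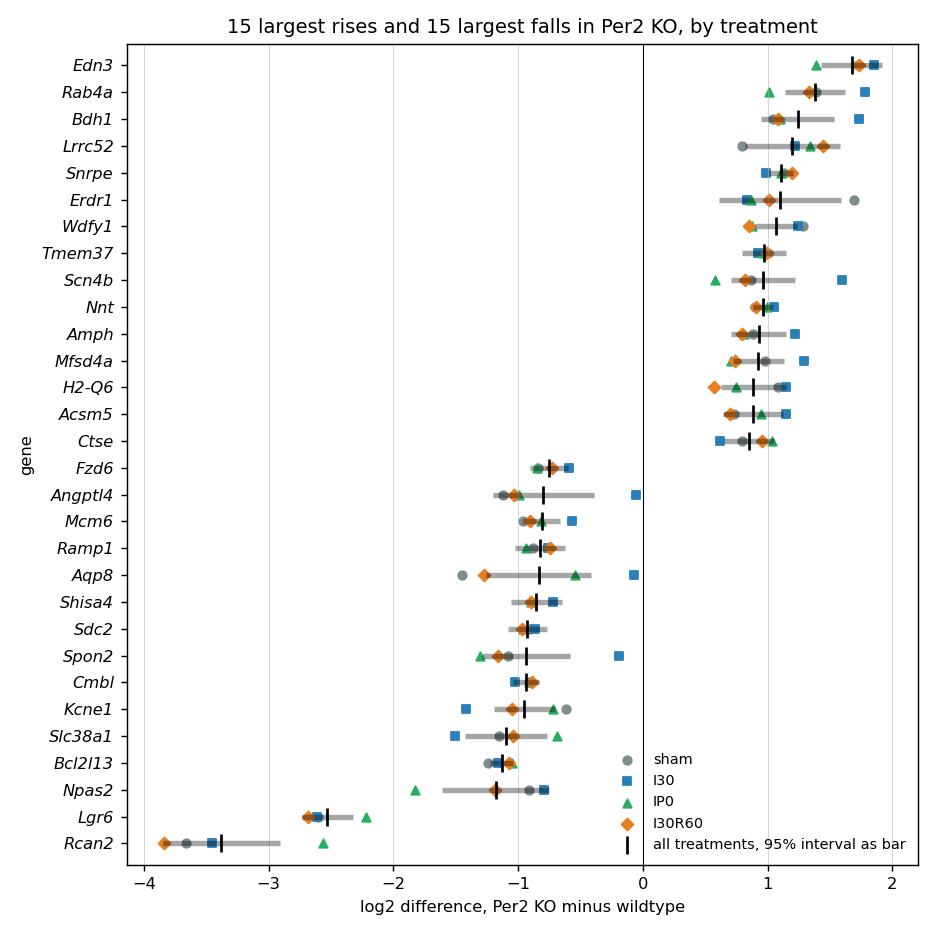
Log2 difference, Per2-/- minus wildtype (x axis), for 30 genes (y axis), the 15 most raised and the 15 most lowered in Per2-/- hearts, with a marker for each treatment, a bar for the 95% interval over all treatments and a tick for its centre. All 30 genes keep 1 sign in the 4 treatments, and Spon2, Aqp8 and Angptl4 come close to 0 in I30 hearts.

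Where the array holds further probe sets for a gene, they mostly pointed the same way. Fitted over all 35555 probe sets, 337 passed (0.948%). For 23 of the 319 genes there were 34 other probe sets, of which 30 had the same sign, 8 passed the test with that sign and none passed with the opposite sign.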

How the data were processed

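RNA of 24 left ventricles was hybridized to Affymetrix Mouse Gene ST arrays, 1 heart per array. The authors deposited log2 intensities of probe sets, normalized by RMA, and the submitters' processing notes name Partek. The build behind the probe sets is not given in the sources used here, and RMA, which sets all arrays to 1 distribution before summarizing probes, hides any shift common to all genes. The samples were grouped by genotype and treatment from the labels. Of 35555 probe sets, 21218 were paired with 1 gene symbol, and for 1386 genes with several the one with the highest mean over all arrays was used, which left 18820 genes. Nothing was left out for low signal, and there are no detection calls.

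The genotype difference was fitted with limma 3.58.1 in R 4.3.3 as the coefficient of genotype beside treatment over all arrays (19 residual degrees of freedom, default moderation), with Benjamini-Hochberg adjustment over all genes and a call at an adjusted p under 0.05. The interaction and the differences within treatments came from a mean per group (16 degrees of freedom). Tests assume that arrays of a group are separate animals. The code was tested on simulated data. Python 3.11.15, numpy 2.4.6, pandas 2.3.3 and matplotlib 3.10.9 were used for tables and figures.

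The genes named are Per2, the 15 largest rises and 15 largest falls that passed, up to 15 genes whose arrays do not overlap, up to 4 members of each list and the genes that passed nearest Per2, with others marked where they appear. The members of the comparison and the lists were chosen with earlier results of these data known. Rpl30, Sema5a, Laptm4b, Spag1, Ccn3, Rcan1, Edn1 and the 2 microRNA genes were likewise picked out with their values known. Lists are described by counts and medians, without a set test. Replicate numbers were not treated as pairs. Alternatives covered the moderation, array weights, scaling, level filters, the choice of probe set, thresholds, a replicate block, each treatment and each array left out.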

Additional observations from a re-analysis of the deposited data

Results flagged for a closer look

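Sftpc, a surfactant gene of lung epithelium, differed in opposite directions in 2 treatments: every Per2-/- array lay above every wildtype array in sham hearts (0.80) and below every wildtype array in I30 hearts (-2.15). The interaction of genotype and treatment did not pass the test with all arrays (limma adjusted p = 0.309) and passed without wildtype I30 replicate 3 (adjusted p = 0.000469). Wildtype I30 arrays had Sftpc levels of 6.72, 5.49 and 4.22, against 2.59 to 4.09 in Per2-/- arrays.

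Probe sets outside the table of genes also differed. Of 1881 probe sets paired with several symbols, 45 passed the test, 39 higher and 6 lower in Per2-/- hearts, and of 12456 without an entry in the pairing 27 did, 16 higher and 11 lower (adjusted over all 35555 probe sets, of which 337 passed). They are not named here.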

How the results depend on the processing

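All 55 named genes that passed kept the sign of their difference in every alternative that could be fitted for them, which was all 43 for 40 genes and 41 or 42 for the 15 genes that a filter on the mean level removed. With each array left out in turn, 45 of them passed every time, and the number of genes that passed ranged from 250 to 329 (141 to 198 higher, 107 to 135 lower, 15.03% to 18% of them on chromosome 1). In other settings it reached 458, among genes with a mean above 5. The number was 151 at an adjusted p under 0.01 (92 higher, 59 lower) and 62 with at least a 1.5-fold difference (37 and 25). It was 141 without sham hearts (77 and 64, with 24.8% on chromosome 1), 129 without I30 hearts (63 and 66, with 24.0%), 203 without IP0 hearts (121 and 82) and 222 without I30R60 hearts (73 lower). These fits have fewer arrays, which by itself leaves fewer genes past the threshold. Without both sets of arrays chosen for high atrial or lung transcripts it was 134 (85 and 49). Among genes with a mean above 6, 10.6% of those that passed lay on chromosome 1, and the cause was not tested. The Per2 difference ranged from -0.52 to -0.03 and passed in none (adjusted p = 0.22 to 0.98).

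With a block for replicate number, 309 genes passed (185 higher and 124 lower), and the interaction stayed at 0. The numbers were not taken as a pairing: deviations from the group means correlated by 0.02 between arrays of equal number and by -0.01 between others, and in 1 of 28 pairs of groups every such correlation was over 0.1. As a hint from the data, 19 of 24 arrays had their highest correlation with an array of equal number. This is more than equal shares of the 3 replicate numbers would give, and its source was not tested. The interaction was called for 1 gene, 4933409K07Rik, with trended and robust variances (adjusted p = 0.0343), and for 2 genes, Sftpc and Serpina3n, without wildtype I30 replicate 3 (adjusted p = 0.000469 and 0.00211). Without any other array it was called for none.

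Aqp8 lost its call when any of 11 arrays was left out (adjusted p up to 0.065), Erdr1 without the I30 hearts, the I30R60 hearts or both sets of arrays, and Spon2 without the IP0 or the I30R60 hearts. Nnt passed with its stronger probe set only. The microRNA genes lay below the median of all values (4.44), and since the files give no measure of background, depth of signal cannot be judged for them.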
